A study of Mus musculus with 8 samples.

Results

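Both groups of mutant mice, pooled, were compared with wild type liver on all 8 of the 8 two-colour Agilent arrays of the series, to find genes that differ from wild type whatever the treatment. The groups were livers of vitamin C treated Wrn mutant mice on 4 arrays and livers of untreated Wrn mutant mice on 4 arrays. Every array carried wild type liver RNA in its other channel. All mice were 9 months old and of the strain C57Bl/6, and replicates are described as independent biological ones. The labels name neither the allele nor the dose or duration of vitamin C, the sex of the mice or whether animals were pooled. Replicates are numbered 1 to 4 in each group, and the treated and the untreated array of a number name a wild type liver of that same number. The dyes were exchanged between numbers: the mutant RNA was Cy5 on numbers 1 and 2 and Cy3 on numbers 3 and 4.

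WRN, the protein lost or altered in human Werner syndrome, is a RecQ helicase that unwinds DNA and takes part in its repair and replication. Vitamin C (ascorbate) is an electron donor and a cofactor of iron-dependent dioxygenases, and mice make it in the liver through L-gulonolactone oxidase, the product of Gulo. A 2-colour array measures a ratio of 2 RNAs at each feature, and a dye swap separates a feature's preference for a dye from a difference between the RNAs, provided that the direction of each ratio is known.

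That direction is not settled here. The deposited values are log ratios, taken as log2, and can be read in 2 ways. If the values were already written as mutant over wild type on all arrays, they stand as deposited. If they are Cy5 over Cy3, as the order of names in the titles would have it, the values of numbers 3 and 4 have to be multiplied by -1, which is called turned by the dyes below. The mean over arrays under either reading equals, gene by gene, the dye coefficient fitted under the other (largest difference 6.7e-16), so a mutant difference under one reading is a dye difference under the other, and the 2 cannot be told apart for any single gene. Numbers 1 and 2 are also other animals than numbers 3 and 4. Under both readings the mutant was put on top of the ratio. If wild type was on top throughout, every "higher" and "lower" below changes places.

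Array values were centred near 0, with array medians from -0.00527 to 0.00494 and standard deviations from 0.353 to 0.452. The 45220 features gave 19087 named genes. Over all features, arrays of the same number correlated at a median of 0.33 (0.22 to 0.37, 4 pairs), arrays of other numbers with the same dyes at 0.12 (-0.027 to 0.22, 8 pairs) and swapped with unswapped arrays at -0.075 (-0.2 to 0.056, 16 pairs). Same-numbered arrays share a wild type, so the replicate number was a random block in the limma fit. The pooled mean of a gene is the mean of its treated and untreated coefficients, given with its standard error (SE, 8 arrays), and a gene is called at a Benjamini-Hochberg adjusted p under 0.05 over all genes.

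With the values as deposited, limma called 0 of 19087 genes (0%), with 0 higher (0%) and 0 lower (0%), and 0.0587 was the lowest adjusted p. Without adjustment 1554 genes (8.14%) passed 0.05, of which 698 were higher (3.66%) and 856 lower (4.48%), where 5% of the genes would be 954. With the values turned by the dyes, 231 genes were called (1.21%), 209 higher (1.09%) and 22 lower (0.115%), and 0.0051 was the lowest adjusted p. Without adjustment 2515 genes (13.2%) passed 0.05, of which 1468 were higher (7.69%) and 1047 lower (5.49%). Precision was alike under both readings, with a median SE of 0.0931 as deposited and 0.0929 turned. Higher genes made up 90.5% of the called genes, against 45.6% of all genes. The called changes were moderate: their size had a median of 0.582 on the log2 scale (1.5-fold) and ran from 0.346 to 1.38, and 6 genes reached 2-fold. As deposited, the fit's dye coefficient was called in 261 genes, which held 209 of these 231.

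**Figure D1:**
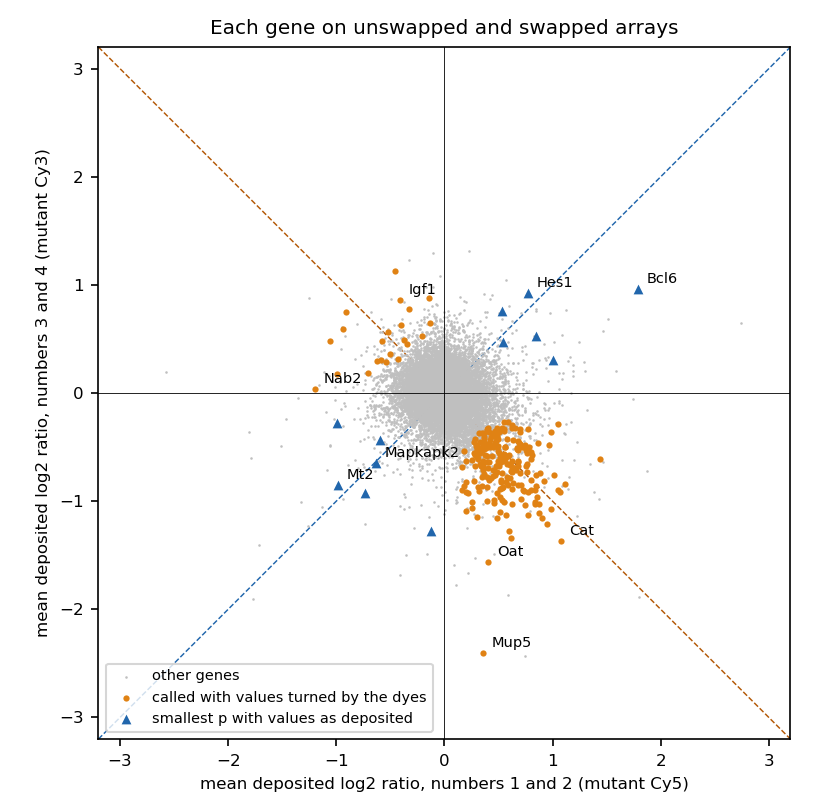
Each point is a gene, by its mean deposited log2 ratio on numbers 1 and 2 (horizontal, mutant in Cy5) and on numbers 3 and 4 (vertical, mutant in Cy3); the rising dashed line marks equal values, the falling one opposite values. The 231 genes called with values turned by the dyes (orange) lie along the falling line, most of them at the lower right, and the 12 genes of smallest p with values as deposited (blue triangles) lie toward the rising line.

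Catalase (Cat), the peroxisomal enzyme that breaks down hydrogen peroxide, had the second largest of the called rises. Turned by the dyes, its log2 ratios over wild type were 0.99, 0.91, 1.32 and 1.72 on the treated arrays 1 to 4 and 1.27, 1.13, 0.79 and 1.65 on the untreated ones. All 8 arrays were above 0 and the 2 mutant groups overlapped. The pooled mean of Cat was 1.22 ± 0.11 (SE, 8 arrays; 2.33-fold; adjusted p = 0.0051). As deposited, where numbers 3 and 4 have the opposite sign, Cat averaged -0.15 with an adjusted p of 0.781. Of the 14 measured antioxidant enzymes only Cat was called. Of these, 4 were higher and 1 was lower at an unadjusted p under 0.05 (7.69% and 5.49% of all genes), and Gpx1, a glutathione peroxidase, stood at 0.38 ± 0.08 against -0.63 ± 0.14 for its secreted relative Gpx3.

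Enzymes of fatty acid oxidation were among the called rises. Ehhadh, the bifunctional enzyme of peroxisomal beta-oxidation and a target of the fatty acid receptor PPAR alpha, had turned values of 0.82, 0.99, 0.69 and 0.97 in treated mutants, and 1.63, 1.02, 1.01 and 0.71 in untreated mutants over wild type. All 8 arrays were above 0, and the largest value was untreated array 1. Its mean was 0.98 ± 0.10 (1.97-fold; adjusted p = 0.0051). Acadl, the long-chain acyl-CoA dehydrogenase of mitochondria, rose by 0.70 ± 0.07, Decr1, needed for unsaturated chains, by 0.72 ± 0.10, and Cyp4a14, an omega-hydroxylase, by 0.48 ± 0.09 with treated array 1 below 0 at -0.21. Of the 31 measured genes in the list of PPAR alpha targets and fatty acid oxidation, 4 were called, all higher (1.21% of all genes were called), 20 lay above 0 and the median was 0.14, against -0.02 for all genes. At an unadjusted p under 0.05, 10 were higher and 2 lower (7.69% and 5.49% of all genes), the lower ones being Creb3l3, a transcription factor of fasting, at -0.39 ± 0.12 and Eci2, an enoyl-CoA isomerase, at -0.27 ± 0.07. As deposited none of the 31 was called and their median was -0.01. Aldh3a2, the fatty aldehyde dehydrogenase, rose by 1.08 ± 0.13 and Hacl1, the lyase of peroxisomal alpha-oxidation, fell by 0.83 ± 0.16.

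The promoters of Cat and Ehhadh are shown because these genes had among the smallest p-values for the turned values and both act in the peroxisome. They are the 250 bases before the RefSeq start (GRCm38.p6), written along the gene, with capitals marking the CCAAT box read on either strand (CCAAT or its complement ATTGG).
Cat (chr2:103485154-103485403, minus strand): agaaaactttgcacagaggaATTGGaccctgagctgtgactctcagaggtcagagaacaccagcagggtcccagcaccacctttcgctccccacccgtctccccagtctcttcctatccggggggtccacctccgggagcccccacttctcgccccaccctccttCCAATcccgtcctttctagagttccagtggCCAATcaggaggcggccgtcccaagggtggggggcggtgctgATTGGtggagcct
Ehhadh (chr16:21787835-21788084, minus strand): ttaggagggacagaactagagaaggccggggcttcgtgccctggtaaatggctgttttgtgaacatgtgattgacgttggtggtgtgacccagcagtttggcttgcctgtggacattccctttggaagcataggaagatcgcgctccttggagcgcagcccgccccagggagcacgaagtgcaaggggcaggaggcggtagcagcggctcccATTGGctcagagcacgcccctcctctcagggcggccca
The Cat window holds 4 matches and the Ehhadh window 1. A match was found in 33.8% of 32851 promoter windows of that length, and it says nothing of which factor acts there.

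Enzymes that process drugs and other foreign compounds were also among the called rises. Ces1d, a carboxylesterase that also acts on triglycerides, had turned values of 1.21, 1.00, 0.66 and 1.09 in treated mutants, and 0.88, 0.94, 0.47 and 0.82 in untreated mutants over wild type. Every array was at or above 0.47, and treated arrays had the larger value in each number. Ces1d rose by 0.88 ± 0.08 (1.85-fold; adjusted p = 0.0051). Cyp2c29, a cytochrome P450, rose by 0.95 ± 0.13, Cyp2e1, which oxidises ethanol and paracetamol, by 1.03 ± 0.16, and Gsta2, a glutathione transferase, by 0.72 ± 0.13. Cyp3a11, the main CYP3A enzyme of mouse liver, had a larger mean of 1.23 ± 0.27 and was not called. Of 41 measured genes of xenobiotic metabolism, 36 lay above 0, 4 were called, all higher, 16 were higher and 3 lower at an unadjusted p under 0.05, and the median was 0.24. Over all genes 1.21% were called, and 7.69% were higher and 5.49% lower at that unadjusted p. As deposited 22 of the 41 lay above 0, with a median of 0.04, and none was called.

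Other called rises were in amino acid, carbohydrate, thiol and iron metabolism. Oat, the mitochondrial ornithine aminotransferase, had turned values of 0.43, 0.81, 1.07 and 1.51 in treated mutants, and 0.33, 0.06, 1.53 and 2.15 in untreated mutants over wild type. The 4 arrays of numbers 3 and 4 were all above the 4 of numbers 1 and 2. Oat rose by 0.99 ± 0.13 (adjusted p = 0.012), and as deposited, with numbers 3 and 4 negative, it averaged -0.58 at an unadjusted p of 0.00021. Ugp2, which makes the UDP-glucose from which mice build glycogen and ascorbate, rose by 1.00 ± 0.11, and Pck1, a controlling enzyme of gluconeogenesis, by 0.53 ± 0.10. Gclm, the regulatory subunit of the enzyme that starts glutathione synthesis, rose by 0.63 ± 0.08, and Ftl1, the ferritin light chain, by 0.62 ± 0.09. Both belong to the 17 measured genes of the list of NRF2 targets and glutathione, of which these 2 were called and 6 were higher and 0 lower at an unadjusted p under 0.05 (7.69% and 5.49% of all genes; median 0.18, and -0.08 as deposited). Trf, the plasma iron carrier transferrin, rose by 0.87 ± 0.10.

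Among secreted liver proteins, F2 (prothrombin) rose by 0.46 ± 0.07 and Serpinc1 (antithrombin) by 0.41 ± 0.07, the called 2 of 25 measured genes of complement and coagulation, of which 7 were higher and 0 lower at an unadjusted p under 0.05 (1.21% of all genes were called and 7.69% higher at that p). As deposited none of the 25 was called, 2 were higher and 0 lower at that p, and the median was 0.04. Apof, an apolipoprotein, rose by 0.42 ± 0.07 and Serpina1e, an alpha-1-antitrypsin, by 0.53 ± 0.08. Akr1d1, the 5-beta-reductase of bile acid synthesis, rose by 0.82 ± 0.11 and Elovl5, a fatty acid elongase, by 0.41 ± 0.08. Mup5, a major urinary protein whose gene has near-identical relatives that an array feature may not tell apart, had the largest called rise at 1.38 ± 0.24. Its turned values were -0.29, 1.21, 1.69 and 1.94 in treated mutants, and -0.64, 1.16, 3.22 and 2.77 in untreated mutants, so that both arrays of number 1 lay below 0. Also named by size were Pcmtd2 at 1.03 ± 0.11, Rbm38, an RNA-binding protein, at 1.02 ± 0.14, the small GTPase Rap1b at 0.99 ± 0.14, the carnitine transporter Slc22a21 at 0.98 ± 0.12 and the splicing factor Hnrnph1 at 0.97 ± 0.16. Ugt2b38, a glucuronosyltransferase, rose by 0.61 ± 0.09.

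Falls made up 22 of the called genes. Igf1, the growth hormone-dependent growth factor that liver releases into blood, had turned values of -0.31, -0.44, -0.71 and -1.04 in treated mutants, and -0.45, -0.44, -0.56 and -1.13 in untreated mutants over wild type. All 8 arrays were below 0, with both arrays of number 4 lowest. Igf1 fell by 0.63 ± 0.08 (adjusted p = 0.012). Alpl, the tissue-nonspecific alkaline phosphatase, fell by 0.58 ± 0.07, and its untreated array 4 was at 0.07. Nab2, a repressor of EGR transcription factors, fell by 0.62 ± 0.09, with values from -0.93 to -1.51 on numbers 1 and 2 but from -0.28 to 0.20 on numbers 3 and 4. Mif, a cytokine, fell by 0.51 ± 0.08, with treated arrays 1 and 2 above 0 at 0.22 and 0.02. Its mean was -0.14 on numbers 1 and 2 and -0.88 on numbers 3 and 4. Ltbp1, which binds latent TGF-beta, fell by 0.54 ± 0.10, with its 2 features at -0.20 and -0.88. Cadm4, a cell adhesion molecule, fell by 0.76 ± 0.14 and Nipal1, a magnesium transporter, by 0.77 ± 0.13. F830010H11Rik (-0.79 ± 0.12), Arid3a, a DNA-binding protein (-0.53 ± 0.10), and Atp6v0d1, a subunit of the vacuolar proton pump (-0.55 ± 0.10), completed the 12 largest falls with Atp5j, a subunit of ATP synthase (-0.52 ± 0.09).

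**Figure D2:**
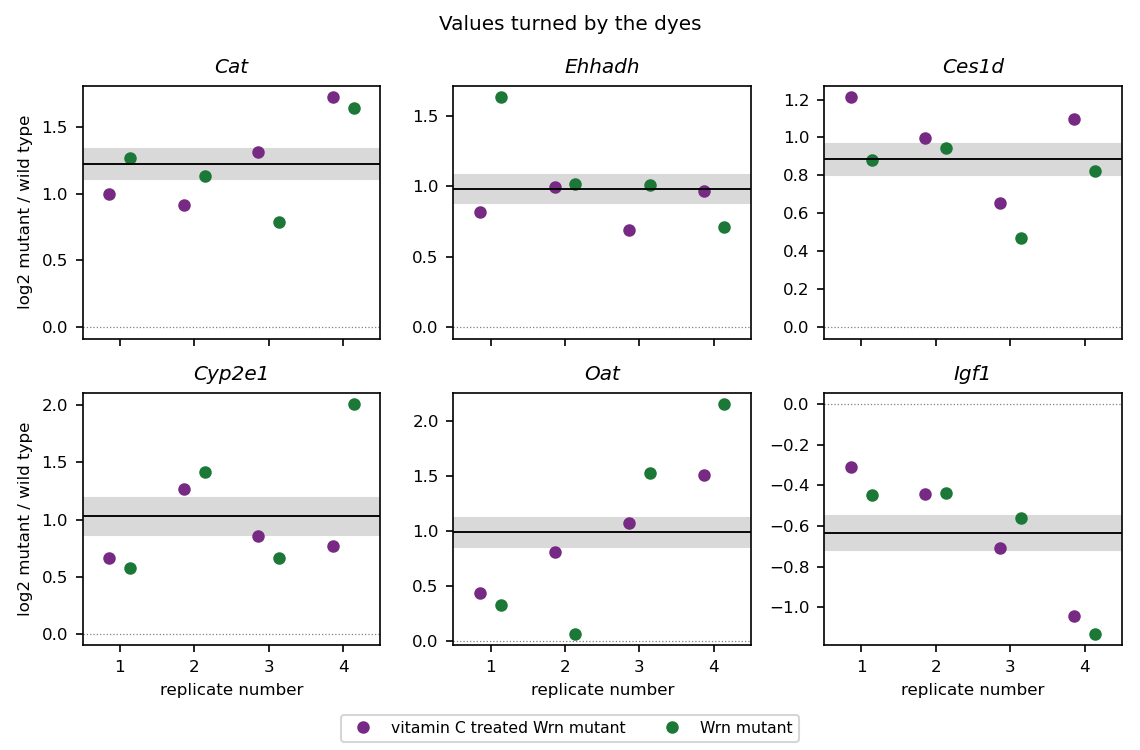
Log2 ratios over wild type on each array, turned by the dyes, for 6 genes; the line is the pooled mean and the grey band 1 SE either side. Cat, Ehhadh, Ces1d, Cyp2e1 and Oat lie above 0 on all 8 arrays and Igf1 lies below 0 on all 8. The ranges of purple (vitamin C treated) and green (untreated) points overlap in each panel, but for Ces1d purple lies above green at every number.

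Most genes for protein synthesis and respiration lay below 0, with few calls. Over all genes, 10369 of 19087 lay below 0 with values turned by the dyes, at a median of -0.02, and 1.21% were called. Of 51 measured ribosomal protein genes, 43 lay below 0 with values turned by the dyes, at a median of -0.13. Rpl3, of the large subunit, was the called member and fell by 0.43 ± 0.08, and 16 were lower and 1 higher at an unadjusted p under 0.05 (5.49% and 7.69% of all genes), Rplp0 being that 1 at 0.25 ± 0.10. As deposited 21 of the 51 lay below 0 and the median was 0.01. Of 57 measured genes of the respiratory chain and ATP synthase, 40 lay below 0 (median -0.09) and Atp5j was called. At an unadjusted p under 0.05, 11 were lower and 2 higher (5.49% and 7.69% of all genes). The 2 higher were Atp5b at 0.32 ± 0.07 and Atp5a1 at 0.26 ± 0.07, both subunits of ATP synthase. As deposited 19 of the 57 lay below 0, against 9901 of all 19087 genes.

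Each mutant group alone gave no call with turned values, with a smallest adjusted p of 0.331 in treated and 0.244 in untreated mutants (4 arrays each). All 231 genes had the same sign in treated and untreated mutants, which their choice by the pooled mean of these arrays nearly fixes, and the size was larger in treated mutants in 93. The sign of the pooled mean, by which these genes were chosen, was seen on 8 of 8 arrays in 193 genes, on 7 in 33 and on 6 in 5. Treated minus untreated differed at an unadjusted p under 0.05 in 8 of the 231 (3.46%), against 698 of all genes (3.66%), and no gene was called for that difference (0%). The absolute difference had a median of 0.125 and a maximum of 0.616, that of 9130016M20Rik, at 1.26 in treated mutants, and 0.64 in untreated mutants. With deposited values the difference passed an unadjusted p of 0.05 in 1049 genes (5.5%) and was called in none (0%).

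With the values as deposited no gene was called, and the genes of smallest p are given as values. Mapkapk2, a kinase downstream of p38 that stabilises cytokine mRNAs, had -0.59, -0.36, -0.42 and -0.55 in treated mutants, and -0.76, -0.81, -0.71 and -0.92 in untreated mutants over wild type. All 8 values were below 0, and the treated arrays lay closer to 0 than the untreated array of the same number each time. The mean was -0.64 ± 0.07 (adjusted p = 0.0587). Plac9a, a small secreted protein gene, had -0.79, -0.53, -1.02 and -0.40 in treated mutants, and -0.87, -0.75, -1.27 and -1.01 in untreated mutants, for a mean of -0.83 ± 0.09 with the same adjusted p of 0.0587. Both genes were called when the replicate block was left out, the only 2 called by that fit. P2ry2, a receptor for extracellular ATP and UTP, averaged -0.52 ± 0.07 and the unnamed-function gene 1700029I15Rik -0.63 ± 0.09.

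The metallothioneins, small proteins that bind zinc and copper and are induced by metals and glucocorticoids, stood low together as deposited. Mt2 had -0.82, -0.76, -1.18 and -1.09 in treated mutants, and -1.23, -1.12, -0.84 and -0.31 in untreated mutants over wild type, a mean of -0.92 ± 0.12 (adjusted p = 0.082). Mt1, with 11 features, had -0.73, -0.62, -0.94 and -0.96 in treated mutants, and -1.01, -0.60, -0.78 and -0.04 in untreated mutants, a mean of -0.71 ± 0.12 (adjusted p = 0.135). In both genes all arrays were below 0 and untreated array 4 was the one nearest to 0. With turned values the means were -0.06 for Mt2 and -0.03 for Mt1. The 250 bases before each RefSeq start (GRCm38.p6) are shown since both genes are known targets of the metal-sensing factor MTF1, with capitals marking TGCGCNC or TGCACNC, the core of the metal response element, on either strand.
Mt2 (chr8:94172368-94172617, plus strand): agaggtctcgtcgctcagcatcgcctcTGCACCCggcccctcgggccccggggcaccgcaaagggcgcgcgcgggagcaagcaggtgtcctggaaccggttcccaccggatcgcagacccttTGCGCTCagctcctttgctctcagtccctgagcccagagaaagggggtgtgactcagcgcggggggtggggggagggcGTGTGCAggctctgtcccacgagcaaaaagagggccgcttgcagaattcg
Mt1 (chr8:94178839-94179088, plus strand): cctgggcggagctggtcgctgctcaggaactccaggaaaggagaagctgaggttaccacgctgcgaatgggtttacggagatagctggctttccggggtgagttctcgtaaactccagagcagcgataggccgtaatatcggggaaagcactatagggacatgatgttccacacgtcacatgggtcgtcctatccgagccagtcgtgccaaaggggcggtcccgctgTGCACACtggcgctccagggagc
The Mt2 window holds 3 matches and the Mt1 window 1, and 21.4% of the 32851 windows hold at least 1. Bases beyond these windows, including those after the RefSeq start, were not searched, so the counts do not cover every such element of either gene.

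On the higher side, Bcl6, a transcriptional repressor that is sex-biased in mouse liver, had 2.85, 1.56, 1.13 and 1.30 in treated mutants, and 2.20, 0.57, 0.52 and 0.90 in untreated mutants over wild type as deposited. Every array was above 0, and the treated value was the larger in each number. The mean of Bcl6 was 1.38 ± 0.19 (adjusted p = 0.101). Hes1, a repressor induced by Notch signalling, had 1.04, 0.40, 1.58 and 0.62 in treated mutants, and 0.71, 0.94, 0.92 and 0.58 in untreated mutants, a mean of 0.85 ± 0.13 (adjusted p = 0.119). Flot1, a protein of membrane rafts, averaged 0.51 ± 0.08.

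**Figure D3:**
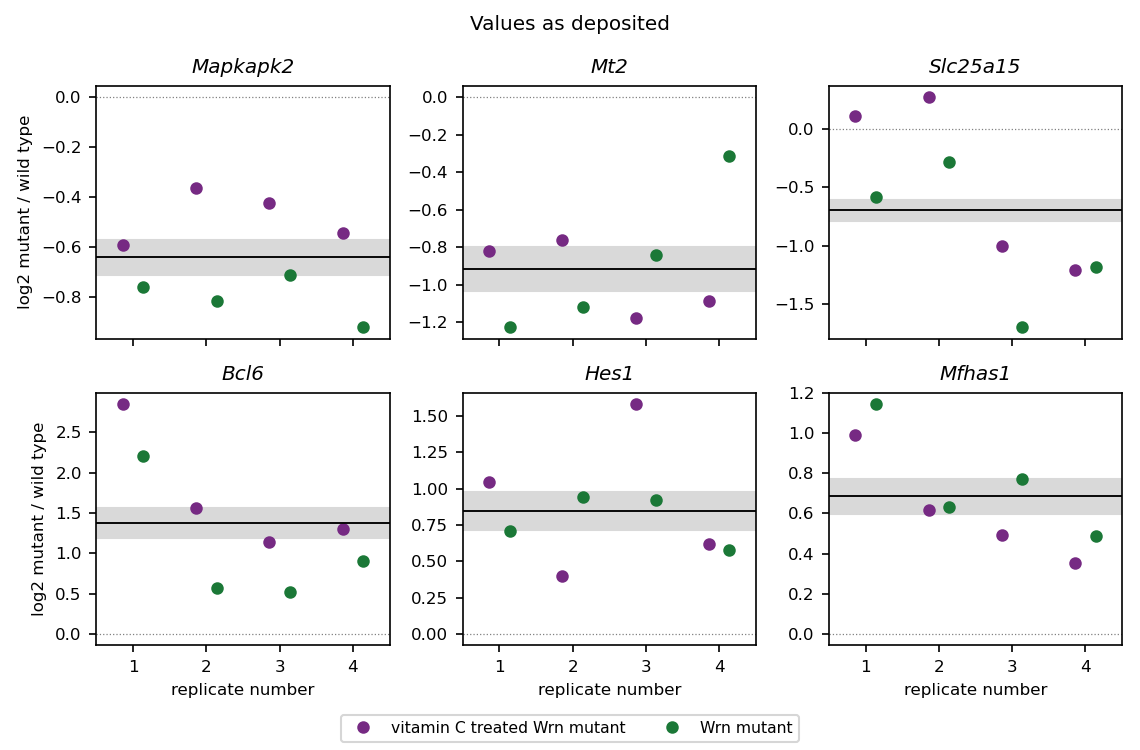
Log2 ratios over wild type on each array, as deposited, for 6 of the genes of smallest p, none of them called; the line is the pooled mean and the grey band 1 SE either side. Mapkapk2 and Mt2 lie below 0 and Bcl6, Hes1 and Mfhas1 above 0 on all 8 arrays, whereas Slc25a15 has 2 treated arrays above 0.

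The remaining genes of smallest p lay on the chromosome of Wrn. As deposited, 75 genes had an unadjusted p under 0.001 (0.393% of all), and chromosome 8, which holds 4.95% of the measured genes, held 15 of them (20%). That is 1.59% of the genes of chromosome 8, against 0% to 0.832% for each of the other autosomes and the X chromosome. With the values turned, 290 genes passed that p (1.52% of all), and chromosome 8 held 13 (4.48%), or 1.38% of its genes, where the other chromosomes ran from 0.737% to 2.47%. Genes near Wrn had been seen in earlier results of these data to hold more small p-values as deposited, so these counts are a description and no independent support of either reading.

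The 15 genes were not spread evenly along the chromosome. Taking measured genes in the order of the RefSeq assembly GRCm38, the 50 that follow Wrn held 7 at an unadjusted p under 0.001 as deposited (14%) and 17 at an unadjusted p under 0.05 (34%), and the 50 that precede it held 0 and 3 (6%). With the values turned, the 50 that follow held 0 and 8 (16%) and the 50 that precede 3 and 11 (22%). Over all genes, 8.14% passed an unadjusted p of 0.05 as deposited and 13.2% turned. The windows of 50 were looked at after the values were seen. Taking 100 genes on each side of Wrn, 28 of 200 (14%) passed 0.05 as deposited and 29 (14.5%) turned, with 0 and 4 called. The 7 genes were Leprotl1 and Saraf, at places 12 and 13 after Wrn, Mfhas1 at 18, Trmt9b at 22, Mtus1 at 38, Fgl1 at 39 and Frg1 at 43. Leprotl1 averaged -0.48 ± 0.08, Saraf, a regulator of store-operated calcium entry, -0.43 ± 0.08 and Trmt9b -1.17 ± 0.18. For Trmt9b the groups differed in size, at -1.68 in treated and -0.65 in untreated mutants, and untreated array 4 was above 0 at 0.315. Mfhas1 averaged 0.69 ± 0.09, Mtus1, a microtubule-associated protein, 0.41 ± 0.08 and Frg1 0.45 ± 0.09. So 4 were higher and 3 lower, each with its own direction. Vegfc, a lymphatic growth factor, at place 84, averaged 0.65 ± 0.10.

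Mfhas1 shows the pattern by array: as deposited it had 0.99, 0.62, 0.49 and 0.35 in treated mutants, and 1.14, 0.63, 0.77 and 0.49 in untreated mutants over wild type. All 8 values were above 0 and the 2 groups overlapped (adjusted p = 0.082). Fgl1, a protein secreted by hepatocytes, averaged 0.66 ± 0.09, but its 2 features disagreed, at -0.15 and 1.47. Slc25a15, the mitochondrial ornithine carrier, lies 67 measured genes before Wrn and averaged -0.70 ± 0.09 as deposited (adjusted p = 0.082), with treated values of 0.11, 0.27, -1.001 and -1.21 and untreated ones of -0.59, -0.28, -1.70 and -1.19, so that numbers 3 and 4 were lower than numbers 1 and 2 in both groups. When turned, Slc25a15 averaged 0.57 ± 0.12 (adjusted p = 0.0617). It thus had an unadjusted p under 0.001 in both readings, with opposite signs. Of the 12 genes of smallest p named as deposited, Mfhas1, Fgl1, Vegfc, Slc25a15 and Mt2 are on chromosome 8. The count of 15 was 9, 16, 18 and 17 when numbers 1, 2, 3 and 4 were left out in turn. Since more genes of other chromosomes passed in most of these fits, the share held by chromosome 8 was 27.3%, 9.25%, 11.2% and 8.95%, against its 4.95% of measured genes. With turned values the counts were 7, 5, 17 and 25, and the shares 3.93%, 2.43%, 6.51% and 5.14%.

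**Figure D4:**
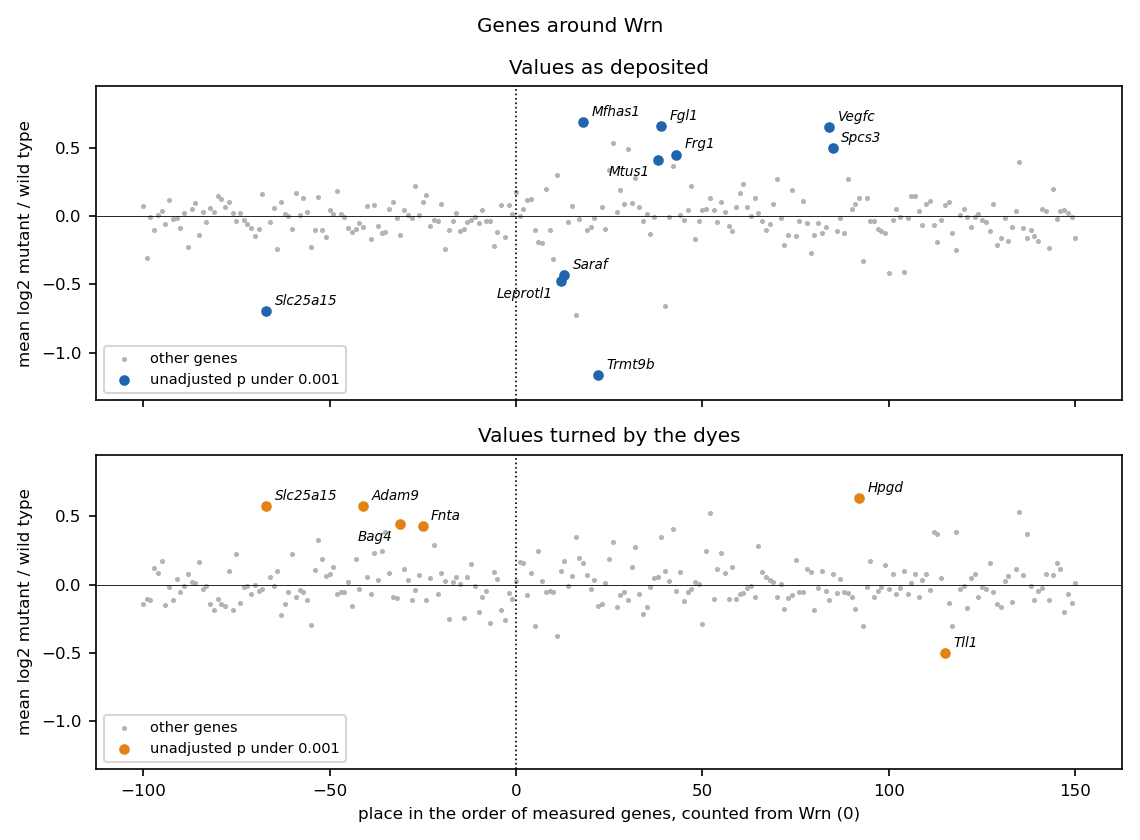
Measured genes around Wrn on chromosome 8 in their order (horizontal, Wrn at 0), by the pooled mean log2 ratio over wild type (vertical), as deposited (upper panel) and turned by the dyes (lower panel); coloured points have an unadjusted p under 0.001. As deposited 7 coloured points lie among the 50 genes to the right of Wrn, and turned by the dyes none does.

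Wrn itself did not stand apart under either reading. As deposited its 4 features averaged 0.24, 0.15, 0.29 and -0.04 in treated mutants, and 0.31, 0.11, 0.00 and 0.34 in untreated mutants over wild type, a mean of 0.17 ± 0.08 (adjusted p = 0.624). With turned values it was 0.03 ± 0.08 (adjusted p = 0.911). Where these features lie relative to the mutated part of the gene was not known, so the level of Wrn does not check the labels. Gulo averaged -0.29 ± 0.08 as deposited (adjusted p = 0.415) and 0.18 ± 0.08 turned (adjusted p = 0.378), and Slc23a1, an ascorbate transporter, -0.17 ± 0.09 as deposited (adjusted p = 0.673) and 0.16 ± 0.08 turned (adjusted p = 0.456). Of 12 measured genes of ascorbate synthesis, transport and recycling, only Ugp2 was called, and only with turned values.

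No member of the metabolic lists was called as deposited. Over all genes tested, 3.66% were higher and 4.48% lower at an unadjusted p under 0.05, and the median was -0.01. When turned, 7.69% were higher and 5.49% lower at that p. Of 13 measured genes of glucose metabolism, 11 lay below 0 (median -0.33), 8 were lower and 1 higher at an unadjusted p under 0.05. The lower ones included Ppp1r3b, which targets a phosphatase to glycogen and lies 16 genes after Wrn, at -0.72 ± 0.18, Pygl, liver glycogen phosphorylase, at -0.40 ± 0.10, and Ppargc1a, a coactivator of the fasting response, at -0.38 ± 0.10, while Ppp1r3c stood at 0.42 ± 0.10. When turned, 12 of these 13 lay above 0, at a median of 0.09. Of 11 measured genes of the urea cycle and ornithine, 10 lay below 0 as deposited (median -0.19), with Slc25a15 and Oat at the lowest p, and turned by the dyes 7 of the 11 lay above 0. Of 17 one-carbon genes, 5 were lower and 1 higher at an unadjusted p under 0.05 as deposited, among them Cth, cystathionine gamma-lyase, at -0.56 ± 0.12 and Bhmt, betaine-homocysteine methyltransferase, at -1.05 ± 0.31. When turned, 3 of the 17 were higher and 0 lower at that p (median 0.07). Of 21 genes known to be higher in female liver, 6 were lower and 1 higher as deposited, such as Cyp17a1 at -0.77 ± 0.16 and Sult3a1 at -1.09 ± 0.26. As deposited the median of these 21 was -0.39 in treated and 0.00 in untreated mutants. For treated minus untreated 7 passed an unadjusted p under 0.05 (5.5% of all genes did), with none called. When turned, 16 of the 21 lay above 0 (median 0.23), and 5 were higher and 2 lower at an unadjusted p under 0.05. Of these 21, Cyp4a14 was called when turned. The list of iron, heme and metallothionein genes was split as deposited, with 9 above and 9 below 0 and a median of 0.00: 5 of 18 were lower, with Hamp, the iron hormone hepcidin, at -0.57 ± 0.14 and Alas1, the first enzyme of heme synthesis, at -0.61 ± 0.15, and 2 were higher. When turned, 2 of the 18 were higher and 1 lower at an unadjusted p under 0.05, and Trf was called.

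**Figure D5:**
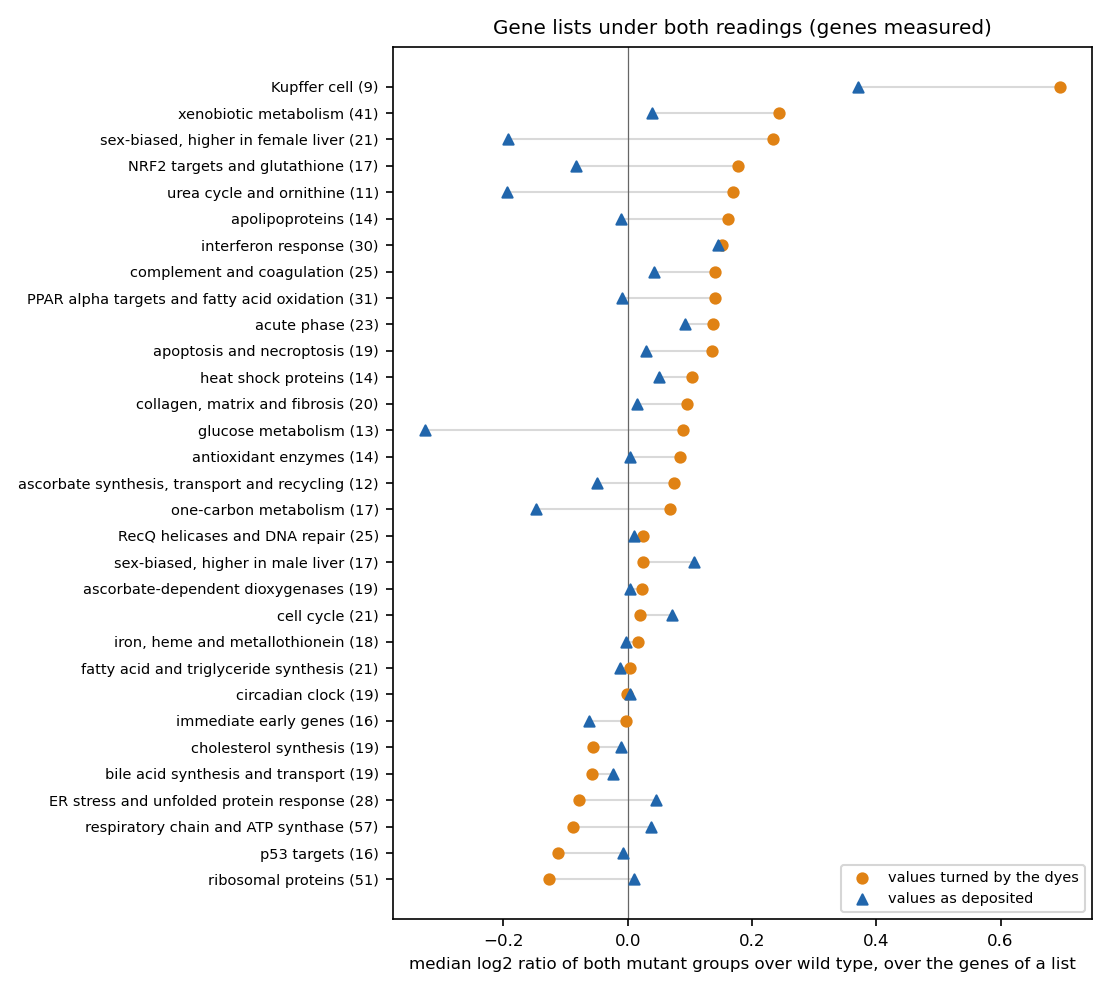
Median of the pooled log2 ratio over wild type for 31 gene lists, with the number of measured genes in brackets, turned by the dyes (orange circles) and as deposited (blue triangles), in order of the turned median. Xenobiotic metabolism stands at 0.24 turned and 0.04 as deposited, glucose metabolism at 0.09 and -0.33, and ribosomal proteins at -0.13 and 0.01.

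Markers of Kupffer cells, the macrophages of the liver, varied widely between numbers. As deposited the mean over their 9 measured markers was 1.18, 1.02, -1.89 and 2.20 on treated arrays 1 to 4 and 1.14, 0.93, -2.09 and 0.40 on untreated ones. Both arrays of number 3 were low and the other 6 above 0, and Marco, a scavenger receptor, ran from -5.35 to 4.79. None of the 9 was called under either reading, with medians of 0.37 as deposited and 0.70 turned. By pooled mean 8 of the 9 lay above 0 as deposited and 9 when turned. At an unadjusted p under 0.05, 2 were higher and 0 lower under each reading (3.66% and 4.48% of all genes as deposited, 7.69% and 5.49% turned). These were Clec4f, at 0.74 ± 0.15 as deposited and 0.42 ± 0.15 turned, and Vsig4, at 0.84 ± 0.29 and 0.90 ± 0.30. Fewer cells of a type and less RNA per cell cannot be told apart in bulk tissue, and the part of these cells in the other results was not tested. The 4 measured markers of the hepatocyte had array means from -0.31 to 0.33 as deposited (median of the markers 0.09). When turned, the array means ran from 0.03 to 0.33 (median 0.22). By pooled mean 2 of these 4 then lay above 0 and 2 below, with Alb, albumin, at 0.49 ± 0.11. None of the 4 was called under either reading.

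DNA repair genes, p53 targets and ascorbate-dependent dioxygenases held no call under either reading. Of 25 measured RecQ helicase and DNA repair genes, 1 was higher and 1 lower at an unadjusted p under 0.05 as deposited, and 3 were higher and 0 lower when turned. Of 16 measured p53 targets, 0 passed that p as deposited, and 1 was higher and 3 were lower when turned. Of 19 ascorbate-dependent dioxygenases, 0 passed as deposited and 3, all higher, when turned. These shares are to be read against the 8.14% as deposited and 13.2% turned of all genes.

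The turned calls rest on treating the treated and untreated arrays of a number as separate measurements with a fitted correlation of 0.0932. When both arrays of each number were averaged first, which leaves 4 values, limma called 0 genes under either reading, with a smallest adjusted p of 0.0585 turned and 0.379 as deposited. Leaving out both arrays of a number changed the turned count to 29, 83, 169 and 612 for numbers 1, 2, 3 and 4. The correlation of same-numbered arrays fitted there was negative, at -0.0688, -0.0659, -0.075 and -0.119. A negative value makes the SE of the pooled mean smaller than for independent arrays. Those counts thus make no allowance for same-numbered arrays being alike. With that limit, 15 of the 231 were called in all 12 leave-outs of an array or a number. These were Cat, Ehhadh, Acadl, Ces1d, Slc22a21, Pcmtd2, Enpep, a peptidase of angiotensin, Dld, the shared E3 subunit of mitochondrial dehydrogenases, Selenof, Pnrc1, Cnbp, Itm2b, Sfr1, 9130016M20Rik and Eif2s3x-ps1. As deposited the counts were 0, 22, 1 and 79, again with negative correlations (-0.0147, -0.0406, -0.0651 and -0.0587). The 79 genes called without number 4 included Mapkapk2, Plac9a, Mt1, Mt2, Mfhas1, Slc25a15 and Hes1 from above, and also Kupffer cell genes such as Marco and Cd5l, which stood low on number 3. In that fit number 3 was the only swapped number, and Marco averaged -1.91 and Cd5l -0.68. On numbers 1 and 2 alone they averaged 1.22 and 1.47, the opposite sign.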

How the data were processed

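Liver RNA was hybridised to 8 two-colour arrays, 4 per mutant group. The authors deposited 1 table of log ratios for 45220 features, taken as log2 values. The submitters' processing notes list limma, without saying for what. How background was corrected, how arrays were normalized, the base of the logarithm and which RNA is on top are not stated there. The medians show that the arrays were centred. The table holds no intensities, so dim and saturated features were not filtered and the number of arrays limits the precision.

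GEO's platform annotation named a single gene for 33653 features, while 56 had several symbols and 11511 had none. Features of a gene were averaged (19087 genes, 8343 with more than 1 feature). Names and gene order came from a RefSeq table of GRCm38.

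Both readings were fitted with limma 3.58.1 in R 4.3.3 (lmFit, duplicateCorrelation, eBayes): a coefficient per mutant group, a dye coefficient and the replicate number as random block, with 5 residual degrees of freedom. The contrast was the mean of both groups against 0, with Benjamini-Hochberg adjustment over all genes at 0.05, and the script was tested on simulated data. Within each mutant group the deviations of same-numbered arrays correlated at 0.316, 0.283, 0.44 and 0.31 for numbers 1 to 4, and each number matched itself best; the labels tie the pair through a shared wild type number.

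Under each reading the text names the 12 largest called rises and falls, or else the 6 of smallest p per direction, then up to 3 called members of smallest p per list, and Wrn, Gulo and Slc23a1. Other genes were named after their values were seen. The comparison, the 39 gene lists (769 genes, 64 not measured) and the genes near Wrn were chosen with earlier results of these data known. Alternatives were no block, averaged numbers, no dye coefficient, 3 other scalings, robust or thresholded tests, array weights, other summaries of features, each group alone and leaving out arrays or numbers.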

Additional observations from a re-analysis of the deposited data

Results flagged for a closer look

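Within each mutant group the 4 arrays of every named gene were compared after subtraction of the fitted dye coefficient, and a single array was marked where its gap to the nearest other, as a share of the group's range, exceeded Dixon's critical value for 4 samples at the 95% level. Of 118 such groups 2 were marked, and chance marks about 1 in 20. Mup5 on treated array 2 stood at 2.23 with values turned by the dyes, with the nearest other treated array at 0.92. Cyp2e1 on treated array 2 stood at 1.32, with the nearest at 0.81. Outside the named genes, 146 of the 11567 features with no gene symbol or several were called with values turned by the dyes, 131 of them higher, and 0 as deposited.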

How the results depend on the processing

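As deposited, 0 genes were called with the replicate block, 2 with no replicate block (Mapkapk2 and Plac9a), 5 after quantile normalization (Bcl6, Mapkapk2, Mfhas1, Mt2 and Plac9a), 2 with robust eBayes, 2 with features fitted singly, 5 at an adjusted p under 0.10 and 53 from numbers 1 and 2 alone, and leave-outs gave 0 to 79. Turned by the dyes, the 231 became 309 with no replicate block, 31 at an adjusted p under 0.01, 429 at 0.10, 649 with features fitted singly, 53 from numbers 1 and 2 alone (12 of them among the 231) and 29 to 612 in the leave-outs. It was 0 with both arrays of a number averaged (2029 genes at an unadjusted p under 0.05), against a fold change of 1.2, in treated mutants alone, in untreated mutants alone and from numbers 3 and 4 alone. Some of these fits used fewer arrays or a stricter test. The averaged fit used all 8 arrays with the replicate number as the unit, which left 2 residual degrees of freedom. Why the counts fell was not tested. The other scalings, array weights, no dye coefficient and the median of features gave 162 to 257. Treated minus untreated stayed at 0 in every fit that gave it. All 231 genes kept their sign in all 12 leave-outs, which their choice by the pooled mean of the same arrays nearly fixes. With turned values the sign of Wrn reversed with the median of features (-0.052), from numbers 3 and 4 alone (-0.147) and in 3 leave-outs (range over all, -0.011 to 0.066), and from numbers 1 and 2 alone Gulo stood at -0.108 and Slc23a1 at -0.017.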

Other observations

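Cholesterol synthesis genes had pooled medians of -0.01 as deposited and -0.06 turned, and as deposited they had lower values in treated than in untreated mutants. As deposited their 19 measured members had a median of -0.21 in treated mutants, and 0.25 in untreated mutants over wild type, and 8 of 19 passed an unadjusted p under 0.05 for treated minus untreated, against 5.5% of all genes, with none called. With turned values the medians were -0.02 in treated mutants, and -0.04 in untreated mutants, and 0 of 19 passed.

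Some genes stood far from wild type without being called. Erdr1, as deposited, had -3.61, -0.71, -2.08 and -3.09 in treated mutants, and -1.85, -0.93, -1.28 and -1.16 in untreated mutants, a mean of -1.84 ± 0.28 (limma, adjusted p = 0.119). Cyp7a1, the rate-limiting enzyme of bile acid synthesis, had -3.52, -1.40, -1.73 and -1.38 in treated mutants, and -1.85, -0.09, -0.91 and -1.60 in untreated mutants, a mean of -1.56 ± 0.27 (adjusted p = 0.152). All 8 arrays were below 0 for both genes as deposited. With turned values the mean was 0.06 for Erdr1 and -0.15 for Cyp7a1.

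Genes at an unadjusted p under 0.05 in both readings numbered 372, of which 165 had the same direction in both. Such a gene has its difference mainly on numbers 1 and 2 or mainly on numbers 3 and 4. Nab2 is an example, at -1.23, -1.11, -0.28 and 0.20 in treated mutants, and -1.51, -0.93, -0.23 and 0.15 in untreated mutants with values turned by the dyes.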
